A study of Homo sapiens with 12 samples.

Results

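Heat shock proteins are molecular chaperones that bind unfolded proteins, help them to fold and keep them from aggregating. HSP70 proteins work in a cycle with HSP40 co-chaperones, which deliver the unfolded protein, and with exchange factors, which release it, whereas HSP90 completes the folding of kinases and receptors. When unfolded proteins accumulate, heat shock factor 1 (HSF1) forms trimers, binds promoters at alternating GAA and TTC units and raises the transcription of these genes. Several of them are also transcribed strongly in unstressed cancer cells.

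Described here are 10 genes of this response, taken by symbol from the 26364 gene symbols of the count tables. They were chosen with earlier results of these data known. They are *HSPA1A* and *HSPA1B* (inducible HSP70), *HSPA8* (constitutive HSP70), *HSPH1* (HSP110, an exchange factor), *DNAJB1* (an HSP40), *HSP90AA1* (inducible HSP90α), *HSPB1* (the small heat shock protein HSP27), *HSPD1* and *HSPE1* (the mitochondrial chaperonin HSP60 and its lid HSP10) and *BAG3*, which couples HSP70 to autophagy. All 10 passed the filter on low counts in every comparison.

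Their RNA was followed in 12 RNA-seq libraries of total RNA from HCT116, a human cell line from a colon carcinoma. Either WT cells or the p65-deficient clone 32 had been kept for 2 h with 5 µM CPT (camptothecin, which inhibits TOP1), with 5 µM ICRF193 (which inhibits TOP2) or with neither, and had then had no TNFα (0 h) or 1 h of TNFα at 20 ng/mL. Each of these 12 conditions is 1 library. Libraries with an inhibitor at 1 h had thus been in it 1 h longer, and the effects of TNFα and of this time cannot be told apart there. The paper's methods also name a vehicle, and the labels do not say whether the libraries without inhibitor had it. If they did not, inhibitor and vehicle cannot be told apart. Clone 32 is a single-cell clone that the paper describes as made with CRISPR-Cas9, although the labels read shRNA p65, so the loss of p65 and other properties of this clone cannot be told apart. With no replicates, libraries that differ in 1 factor were compared as matched pairs, and the p-values measure only how alike these pairs are. In such bulk RNA, a change in the RNA per cell and a change in the mix of cells cannot be told apart.

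The WT libraries held 16300210 to 22051046 counted reads. Of the p65-deficient ones, those at 0 h without inhibitor and with CPT held 20524958 and 18502365, while ICRF193 at 0 h and all 3 at 1 h were shallow, with 8101212 to 8755001. *RELA*, the gene of p65, had 694 to 909 normalized counts (reads divided by the library's size factor) in WT and 548 to 673 in clone 32, which does not measure the protein. Of 8 colon epithelial markers, 5 had at least 20 reads in every library and *CDX1* had 0 in all. Of 9 markers of blood, fibroblast and endothelial cells, only *COL1A1* had at least 20 reads in every library, *CD3E* had 0 in all, and their sum was 91.5 to 217 normalized counts.

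The 10 genes took 0.827% to 0.870% of the counted reads in the 4 libraries without inhibitor, 0.850% to 0.884% with ICRF193 and 0.896% to 0.925% with CPT. Per kilobase of exon, *HSPA8* led with a median of 20939 normalized counts over the 12 libraries, ahead of *HSP90AA1* with 8820 and *HSPD1* with 8660. *HSPB1* followed with 3201 and *DNAJB1* with 1251 normalized counts per kilobase. *HSPE1* with 934, *HSPA1B* with 915, *BAG3* with 649 and *HSPH1* with 547 formed the lower end, and *HSPA1A* had 15.9. The ranges of the neighbours *HSP90AA1* and *HSPD1* overlapped, as did those of *DNAJB1*, *HSPE1* and *HSPA1B*. The ranges of *BAG3* and *HSPH1* overlapped with each other and with those of *HSPA1B* and *DNAJB1*. The place of *HSPE1* depends on its length, since 608 of its 953 exonic bases overlap exons of *HSPD1* or of the *HSPE1-MOB4* readthrough gene, which had 0 reads in all libraries. On its own 345 bases it would have 2579 normalized counts per kilobase and stand before *DNAJB1*.

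The genes differed in how much they varied. The highest library exceeded the lowest 2.26-fold for *HSPA1A*, 2.02-fold for *DNAJB1*, 1.95-fold for *HSPH1* and 1.80-fold for *HSPA1B*. The span of *HSPA1A* rests on 16 to 71 reads, and the part of counting error in it was not tested. *HSPB1* spanned 1.63-fold, *HSPE1* 1.37-fold, *HSP90AA1* 1.35-fold, *BAG3* and *HSPD1* 1.26-fold and *HSPA8* 1.17-fold. The constitutive HSP70 gene *HSPA8* was thus the steadiest, and the plot of all members by library shows in which libraries the others were high or low.

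**Figure D1:**
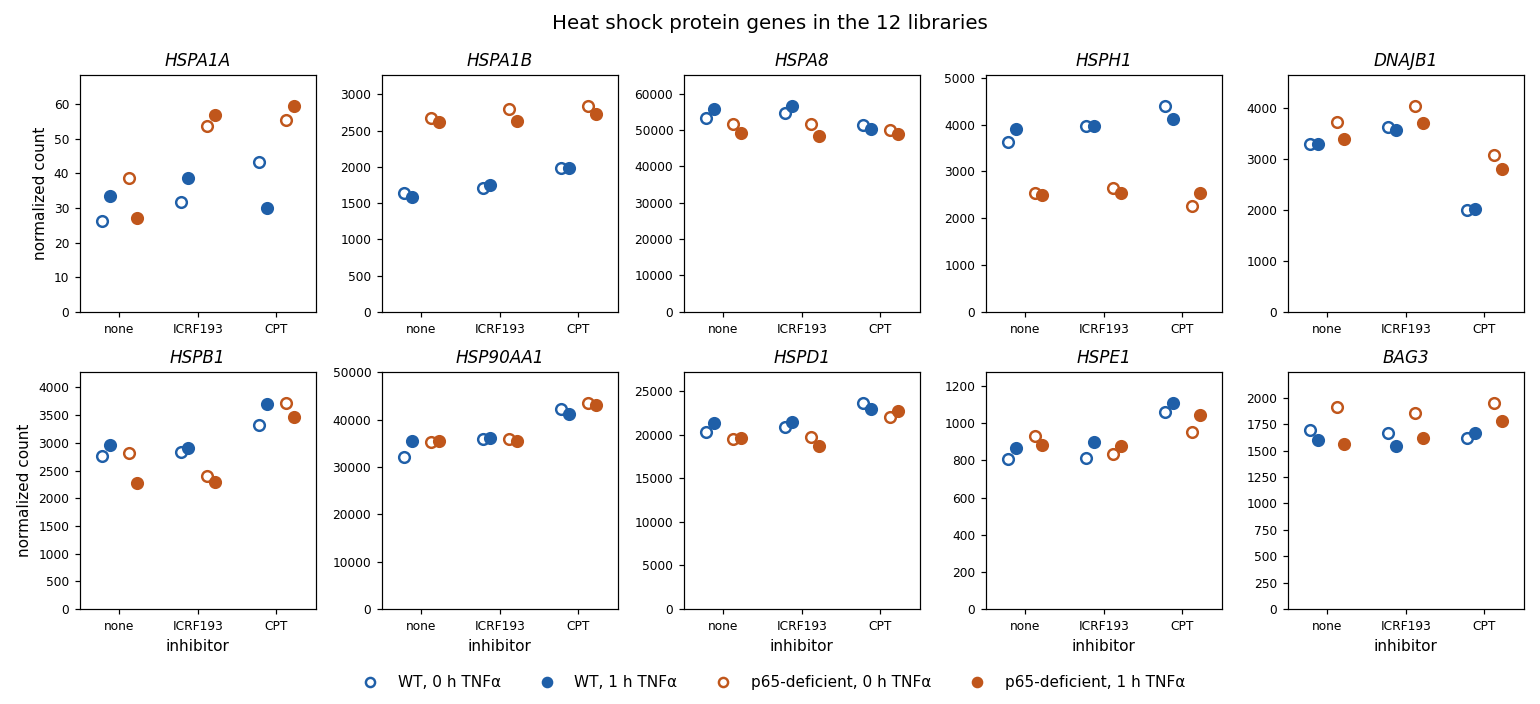
Normalized counts (y axis, from 0) of each of the 10 genes in the 12 libraries, by inhibitor (x axis), with WT in blue, p65-deficient in orange, 0 h TNFα as open and 1 h as filled circles, 1 library per point. *DNAJB1* is lower with CPT in both cell lines, *HSPB1*, *HSP90AA1*, *HSPD1* and *HSPE1* are higher with CPT, and *HSPA1B* and *HSPH1* separate the cell lines.

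*HSPA1A* and *HSPA1B* encode nearly the same protein from neighbouring single-exon genes on chromosome 6 of hg19 (chr6:31783291-31785719 and chr6:31795512-31798031, plus strand). Of all 36-base windows of the *HSPA1A* transcripts, 72.8% also occur in *HSPA1B*. The counting command set no option to keep reads that map to several places, and *HSPA1A* had 16 to 71 reads where *HSPA1B* had 1543 to 3808. The authors' annotation also lists each gene on 5 sequence names. The split between the pair is thus uncertain, and their summed reads are given beside them.

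The promoters of all 10 genes were found in the RefSeq table of assembly GRCh38.p14, and the 250 bases before each start were searched for the units that HSF1 trimers bind. A pair of inverted units, GAANNTTC or TTCNNGAA (each its own reverse complement, so that both strands are covered), occurred in 11.7% of 27305 promoters. A run of alternating units, GAANNTTCNNGAA or its reverse complement TTCNNGAANNTTC, contains overlapping pairs and occurred in 0.439%. Among the members, 4 of 10 held a pair: *HSPA8* with 4 pairs and 2 runs, and *HSPA1A*, *HSPA1B* and *HSPB1* with 1 pair each. The pieces below show the match nearest to the start, or for *HSPA8* a run, 5′ to 3′ on the gene's strand with the matched units and their spacers in capitals, because they show how alike the *HSPA1A* and *HSPA1B* promoters are and how *HSPA8* differs.
HSPA1A (chr6:31815431-31815450, plus strand): accctgGAATATTCccgacc
HSPA1B (chr6:31827627-31827646, plus strand): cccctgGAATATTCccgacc
HSPA8 (chr11:123062173-123062197, minus strand): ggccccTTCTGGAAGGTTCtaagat
HSPB1 (chr7:76302485-76302504, plus strand): acgagaGAAGGTTCcagatg
The matched pair of *HSPA1A* and *HSPA1B* is the same 8 bases, and 98 and 97 bases lie between it and the start. The other 6 promoters do not hold these letters in this window, which says nothing about binding. The RNA of the 4 genes shown did not follow one pattern, as the following values show.

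CPT, which traps TOP1 on DNA, was compared with no inhibitor in 4 matched pairs. *HSPB1*, *HSP90AA1*, *HSPE1*, *HSPA1B* and *HSPD1* rose by 1.13-fold to 1.31-fold, *DNAJB1* fell to 0.705-fold, and *HSPA1A*, *HSPA8*, *HSPH1* and *BAG3* did not pass the test. Among all 13993 genes tested with edgeR, 23.2% were called higher and 25.1% lower with CPT, so that 5 and 1 of 10 members stand against a background in which 48.3% of genes were called. The median log2 fold change was 0.18 over the members and 0.02 over all genes. Over the 5 lists of related genes described below, the list medians were 0.10 to 0.17. Normalized counts and fold changes are relative to the other genes of a library. A change in the total RNA per cell would not show in them. *COL1A1*, a fibroblast collagen gene among the markers, had 116 to 196 normalized counts with CPT and 77.2 to 104 without. The sum of its list, mostly *COL1A1*, had 129.9 to 217 and 103 to 121. The other collagen marker, *COL1A2*, had at most 1 read in any of the 12 libraries. The blood marker *LYZ* had 3.65 to 6.98 normalized counts with CPT and 0 to 2.81 without, at no more than 7 reads. The endothelial marker *VWF* went the other way at few reads, with 3.32 to 12.2 with CPT and 11.9 to 18.2 without. The epithelial sum had 42080 to 52794 with CPT and 39557 to 44413 without, while *CDX2* of that list was lower with CPT (178 to 215 against 302 to 345). The part of either list in the CPT results was not tested.

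*DNAJB1* (chr19:14625576-14629371, minus strand), the HSP40 that activates HSP70, was the only member called lower with CPT. Without inhibitor it had 3308 and 3295 normalized counts in WT at 0 h and 1 h TNFα and 3736 and 3400 in p65-deficient cells. With CPT it had 2007 and 2020 in WT and 3078 and 2817 in p65-deficient cells. Every CPT library was below every library without inhibitor, which held for 20.2% of all genes tested. The log2 fold change was −0.50 (SE 0.0738, adjusted p = 0.000213 by edgeR's quasi-likelihood test with Benjamini-Hochberg adjustment), and the exact 95% interval of each of the 4 pairs, which covers counting error only, lay below 0.

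This fall differed between the cell lines. The log2 ratio of CPT to no inhibitor was −0.72 and −0.71 in the WT pairs and −0.28 and −0.27 in the p65-deficient pairs. The difference of the effects was 0.41 on the log2 scale (SE 0.0722, adjusted p = 0.00425 by edgeR's interaction term), and *DNAJB1* was the only member called among 2.30% of genes called higher and 2.22% called lower in this test. It lost the call without the p65-deficient pair at 0 h, with a difference of 0.43 and an adjusted p of 0.0541 in edgeR. Values nearest to the threshold after *DNAJB1* were −0.28 for *HSPH1* (adjusted p = 0.0792 in edgeR) and −0.25 for *HSPA1B* (adjusted p = 0.0805 in edgeR). *HSPH1* passed the threshold without the WT pair at 1 h (−0.39, adjusted p = 0.000292 in edgeR) and *HSPA1B* without that at 0 h (−0.28, adjusted p = 0.0354 in edgeR), and with all 12 libraries in the fit both did (adjusted p = 0.0424 and 0.0432 in edgeR). With 1 pair left out at a time, the difference was −0.39 to −0.16 for *HSPH1* and −0.28 to −0.19 for *HSPA1B*, with the direction kept throughout.

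*HSPB1* (chr7:75931875-75933614, plus strand), which holds unfolded proteins in large oligomers without using ATP, rose most among the members that passed the test. It had 2763 and 2969 normalized counts in WT and 2812 and 2277 in p65-deficient cells without inhibitor. With CPT these were 3323 and 3694 in WT and 3714 and 3468 in p65-deficient cells. All 4 CPT libraries lay above all 4 without inhibitor, as for 17.2% of genes, and the log2 fold change was 0.39 (SE 0.0523, adjusted p = 0.000123 in edgeR). The largest ratio, 0.61 on the log2 scale, came from the p65-deficient pair at 1 h, whose library without inhibitor was the lowest of the 12.

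*HSP90AA1* (chr14:102547075-102606086, minus strand) had 32221 and 35477 normalized counts in WT and 35405 and 35452 in p65-deficient cells without inhibitor, and 42206, 41205, 43495 and 43154 in the same order with CPT. The groups did not overlap, as for 17.2% of genes in this direction, and the log2 fold change was 0.29 (SE 0.0512, adjusted p = 0.000792 in edgeR). The depth behind this gene, 20862 to 56471 reads, made the intervals narrow, so that the intervals of the lowest and the highest pair ratio, 0.22 and 0.39, did not overlap.

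The mitochondrial chaperonin genes *HSPD1* (chr2:198351308-198364998, minus strand) and *HSPE1* (chr2:198364721-198368187, plus strand) lie head to head and overlap at their 5′ ends. *HSPD1* had 20288 and 21377 normalized counts in WT and 19506 and 19585 in p65-deficient cells without inhibitor, against 23588, 22944, 22069 and 22746 with CPT. *HSPE1* had 807 and 866 in WT and 930.2 and 882 in p65-deficient cells without inhibitor, against 1062, 1107, 952 and 1046 with CPT. For both genes every CPT library exceeded every library without inhibitor, as for 17.2% of all genes tested. The log2 fold changes were 0.17 for *HSPD1* (SE 0.0470, adjusted p = 0.0111 in edgeR) and 0.25 for *HSPE1* (SE 0.0687, adjusted p = 0.0109 in edgeR). *HSPE1* had ratios of 0.40 and 0.35 in the WT pairs and of 0.03 and 0.25 in the p65-deficient pairs, and without the WT pair at 1 h its adjusted p was 0.0651 in edgeR. *HSPD1* lost the call without either p65-deficient pair, with an edgeR adjusted p of 0.0611 without that at 0 h and 0.122 without that at 1 h.

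*HSPA1B* had 1644 and 1581 normalized counts in WT and 2671 and 2622 in p65-deficient cells without inhibitor, and 1991, 1989, 2840.3 and 2736 with CPT. Within each cell line the CPT libraries were above those without inhibitor, while the cell lines themselves differed by more than CPT did. The log2 fold change was 0.18 (SE 0.0565, adjusted p = 0.0198 in edgeR), from ratios of 0.28 and 0.33 in WT and 0.09 and 0.06 in p65-deficient cells. The call rests on the WT pairs, since the adjusted p was 0.0719 without the WT pair at 0 h, 0.111 without that at 1 h and 0.282 with the p65-deficient pairs alone, all in edgeR. The summed reads of *HSPA1A* and *HSPA1B* gave 0.19 (SE 0.0550, adjusted p = 0.0150 in edgeR).

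*HSPA1A* had 26.3 and 33.3 normalized counts in WT and 38.6 and 27.2 in p65-deficient cells without inhibitor, and 43.2, 29.9, 55.4 and 59.4 with CPT. In 3 of 4 pairs the CPT library was higher, and in the WT pair at 1 h it was lower. With so few reads the log2 fold change of 0.50 (SE 0.204) did not pass the threshold (adjusted p = 0.0626 in edgeR). It passed in edgeR without the WT pair at 1 h (0.72, adjusted p = 0.0213), with the p65-deficient pairs alone (0.68, adjusted p = 0.0162), with all 12 libraries in the fit (0.49, adjusted p = 0.0346) and with no expression filter (0.47, adjusted p = 0.0499), and did not with any other pair left out, with no pair block or in DESeq2 (adjusted p = 0.191).

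The remaining 3 genes were near 0 over the 4 pairs together. *HSPA8* (chr11:122928200-122933043, minus strand), the housekeeping HSP70, had a log2 fold change of −0.07 (SE 0.0498, adjusted p = 0.263 in edgeR) at 49025 to 51306 normalized counts with CPT and 49161 to 55736 without. *BAG3* (chr10:121410882-121437329, plus strand) had 0.04 (SE 0.0499, adjusted p = 0.542 in edgeR). *HSPH1* (chr13:31709111-31736525, minus strand) had 0.05 (SE 0.0648, adjusted p = 0.559 in edgeR), but its pairs went in opposite directions. Its WT libraries had 3632 and 3898 normalized counts without inhibitor and 4398 and 4124 with CPT, and its p65-deficient libraries had 2550.1 and 2493 without and 2252 and 2549 with CPT. In the WT pairs alone *HSPH1* was called higher (0.16, adjusted p = 0.0462) and *HSPA8* lower (−0.12, adjusted p = 0.0325) in edgeR. The p65-deficient pairs alone gave −0.10 for *HSPH1* (adjusted p = 0.0783 in edgeR).

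**Figure D2:**
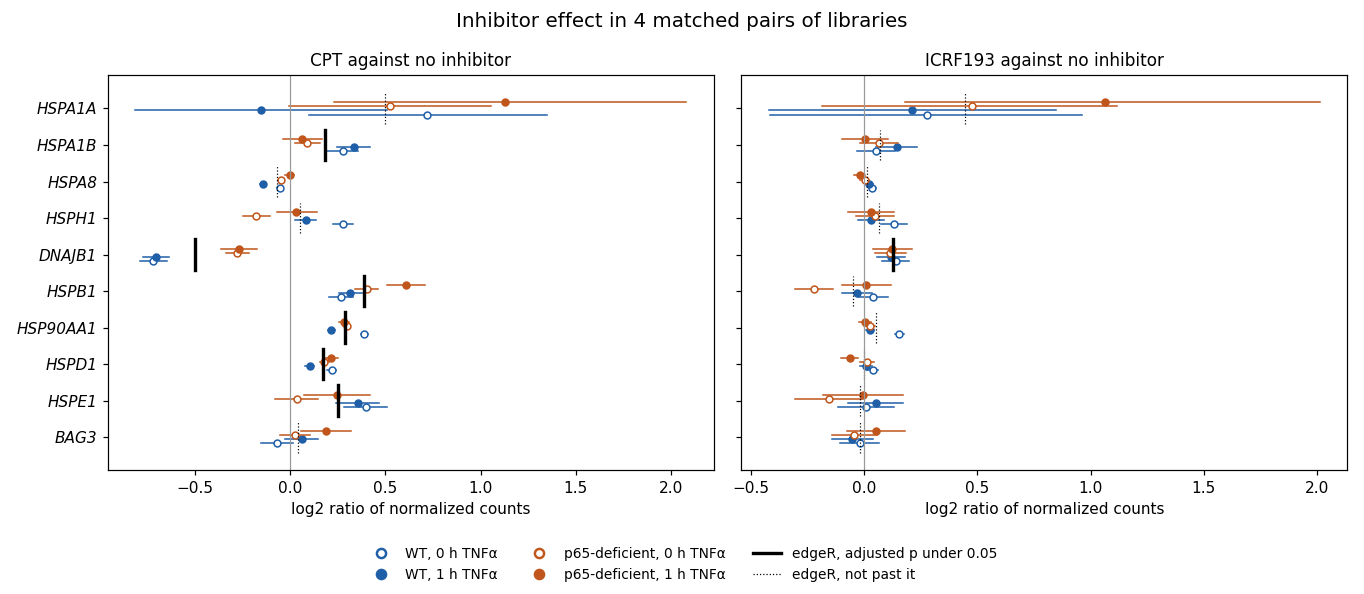
Log2 ratio of normalized counts (x axis) of CPT (left) and ICRF193 (right) to no inhibitor for each of the 10 genes in the 4 matched pairs, as points with exact 95% intervals for counting error, and the edgeR log2 fold change as a thick bar where the adjusted p was under 0.05 and as a dotted line otherwise. With CPT the *DNAJB1* points lie to the left of 0, further in WT than in p65-deficient cells, and with ICRF193 the bar of *DNAJB1* at 0.13 is the only thick one.

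The CPT effect did not detectably depend on TNFα. No member passed the edgeR test of a difference between the CPT effects at 1 h and 0 h, in a test that called 1 of 13993 genes (0.00715% lower, 0 higher). No member had an unadjusted p under 0.05 in edgeR, where 82 of the 13993 genes did, and DESeq2 called no member. The SEs of these differences, 0.111 to 0.159 for the members other than *HSPA1A*, leave room for differences as large as several of the CPT effects themselves. The fit held no term for a CPT effect that differs between the cell lines, so that any such difference entered the spread. Few calls in this test thus cannot show that TNFα makes no difference.

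ICRF193, which blocks TOP2 without trapping broken DNA, was compared with the same 4 libraries without inhibitor. *DNAJB1* alone passed the test, in the direction opposite to CPT, where 0.587% of 13631 genes were called higher and 1.58% lower. It had 3643 and 3580 normalized counts in WT and 4047 and 3706 in p65-deficient cells with ICRF193, each above the matched library without inhibitor, although the groups overlapped. The log2 fold change was 0.13 (SE 0.0282, adjusted p = 0.00473 in edgeR), and the pair ratios of 0.12 to 0.14 all had intervals above 0. This small change lost the call in DESeq2 (adjusted p = 0.117) and in edgeR without the WT pair at 0 h (adjusted p = 0.0555) or at 1 h (adjusted p = 0.0898).

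No other member was called with ICRF193. The log2 fold changes of *HSPA1B*, *HSPH1*, *HSP90AA1*, *HSPA8*, *HSPD1*, *HSPE1*, *BAG3* and *HSPB1* lay between −0.05 and 0.07. *HSP90AA1* had 35540 to 36127 normalized counts with ICRF193 and was above all 4 libraries without inhibitor, as for 1.08% of genes, with a log2 fold change of 0.05 (adjusted p = 0.613 in edgeR). *HSPA1A* had the largest value, 0.44 (SE 0.176, adjusted p = 0.260 in edgeR), from 31.8 and 38.5 normalized counts in WT and 53.6 and 56.9 in p65-deficient cells. Its 4 ratios were all above 0, but 1 of the 4 intervals excluded it.

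TNFα, which activates NF-κB through p65, was compared at 1 h with 0 h in 3 matched pairs per cell line. In WT cells no member was called, where 0.613% of 13707 genes were higher and 0.0292% lower. One member, *HSPB1*, had an unadjusted p under 0.05 in edgeR, as did 595 of the 13707 genes, and DESeq2 called no member. *HSPB1* had a log2 fold change of 0.10 (SE 0.0429, adjusted p = 1 in edgeR), *HSPE1* 0.10 and *BAG3* −0.05, and the other 7 members lay between −0.01 and 0.04.

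In p65-deficient cells no member was called either, where 0.28% of 12858 genes were higher and 0.218% lower. Nearest to the threshold was *BAG3*, with 1915, 1948 and 1857 normalized counts at 0 h (no inhibitor, CPT, ICRF193) and 1562, 1778 and 1619 at 1 h. The groups did not overlap, as for 2.76% of genes in this direction, and the log2 fold change was −0.20 (SE 0.0521, adjusted p = 0.0721 in edgeR). The groups of *HSPA8* did not overlap either, with 49891 to 51776 normalized counts at 0 h and 48454 to 49161 at 1 h, a log2 fold change of −0.06 (SE 0.0540, adjusted p = 0.677 in edgeR) and intervals below 0 in each of the 3 pairs. *HSPB1* with −0.15 (adjusted p = 0.167 in edgeR) and *DNAJB1* with −0.12 (adjusted p = 0.207 in edgeR) were the other members with an unadjusted p under 0.05, and DESeq2 called none. Of all 12858 genes tested, 1683 had an unadjusted p under 0.05 in edgeR. The 1 h libraries without inhibitor and with CPT had 8101212 and 8154407 reads against 20524958 and 18502365 at 0 h, so that depth and TNFα cannot be told apart in these pairs. In the ICRF193 pair, where both libraries were shallow, *BAG3* had a log2 ratio of −0.20 and *HSPB1* of −0.07. Without this pair both passed the threshold in edgeR, *BAG3* with −0.21 (adjusted p = 0.0247) and *HSPB1* with −0.19 (adjusted p = 0.0150), in the pairs where depth moves with TNFα. The calls over all genes also grew in that fit, from 36 higher and 28 lower to 297 and 284 of 13700 genes tested.

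The TNFα effects of the members did not detectably differ between the cell lines. The edgeR interaction test called 0 of 10, where 0.0146% of 13730 genes were higher and 0.204% lower, and DESeq2 called none. An unadjusted p under 0.05 was found for *HSPB1* (−0.25, adjusted p = 0.193 in edgeR), *BAG3* (−0.15, adjusted p = 0.480 in edgeR) and *DNAJB1* (−0.12, adjusted p = 0.483 in edgeR). The same held for 1409 of all 13730 genes.

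The p65-deficient clone was compared with WT in 6 matched pairs. The HSP70 genes *HSPA1B* and *HSPA1A*, *DNAJB1* and *BAG3* were higher in the clone and *HSPH1* was lower, by 1.10-fold to 1.54-fold and to 0.630-fold, and the other 5 members did not pass the test. Of 13730 genes, 15.2% were called higher and 16.9% lower. The median log2 fold change was 0.03 over the members and 0.00 over all genes.

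*HSPA1B* was higher in every library of the clone, with 2622 to 2840.3 normalized counts against 1581 to 1991 in WT. Groups separated in this direction for 4.03% of genes. The log2 fold change was 0.63 (SE 0.0455, adjusted p = 2.56e-07 in edgeR), from pair ratios of 0.46 to 0.73 whose 6 intervals were all above 0. The summed reads of *HSPA1A* and *HSPA1B* gave 0.62 (SE 0.0446, adjusted p = 2.12e-07 in edgeR). *HSPA1A* itself, with 27.2 to 59.4 normalized counts in the clone and 26.3 to 43.2 in WT, had 0.52 (SE 0.157, adjusted p = 0.0220 in edgeR) and was higher in 5 of 6 pairs. It lost the call in edgeR without the pair of no inhibitor at 0 h (adjusted p = 0.0523), of CPT at 1 h (0.0724), or of ICRF193 at 0 h (0.0682) or 1 h (0.0596).

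*HSPH1*, whose protein recharges HSP70 with ATP, went the other way. It had 2252 to 2638 normalized counts in the 6 libraries of the clone and 3632 to 4398 in the 6 WT libraries, a separation seen for 4.92% of genes in this direction. The log2 fold change was −0.67 (SE 0.0520, adjusted p = 5.29e-07 in edgeR). The ratio was nearest to 0 without inhibitor at 0 h (−0.51) and furthest with CPT at 0 h (−0.97).

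The clone's excess of *DNAJB1* was 0.26 on the log2 scale (SE 0.0633, adjusted p = 0.00672 in edgeR) and was uneven. The ratios were 0.62 and 0.48 in the CPT pairs and 0.04 to 0.18 in the other 4 pairs. *BAG3* was 0.13 higher (SE 0.0420, adjusted p = 0.0263 in edgeR), in 5 of 6 pairs. Its call was lost in edgeR without the pair of no inhibitor at 0 h (adjusted p = 0.0733) or of ICRF193 at 0 h (0.0823) or 1 h (0.0556). In the pairs without inhibitor and with CPT at 0 h alone, which hold no shallow library, *HSPA1B* with 0.61 and *HSPH1* with −0.74 were still called in edgeR (adjusted p = 0.00130 and 0.000786), and *DNAJB1* with 0.39, *BAG3* with 0.22 and *HSPA1A* with 0.45 were not (adjusted p = 0.0527, 0.242 and 0.467).

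*HSPA8*, *HSPD1* and *HSPB1* had values of −0.09, −0.09 and −0.13 in the clone (adjusted p = 0.104, 0.0997 and 0.108 in edgeR). *HSPA8* and *HSPD1* were lower in 6 of 6 pairs, but their ranges overlapped with those of WT. *HSPB1* was higher in the 2 pairs at 0 h without inhibitor and with CPT and lower in the 4 others, and those 4 contained the 4 shallow libraries. Without the CPT pair at 0 h, *HSPB1* (−0.19, adjusted p = 0.00719 in edgeR) and *HSPA8* (−0.10, adjusted p = 0.0485 in edgeR) passed the threshold. *HSP90AA1* with 0.05 and *HSPE1* with 0.01 (adjusted p = 0.384 and 0.915 in edgeR) lay closest to no difference.

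**Figure D3:**
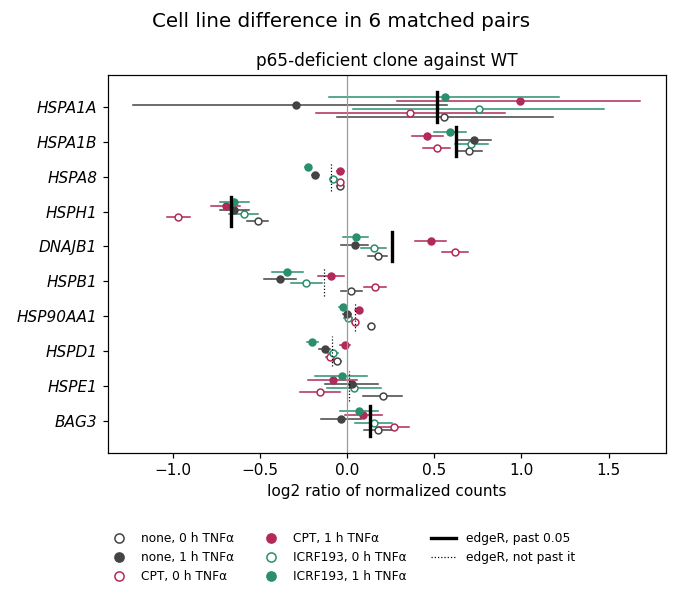
Log2 ratio of normalized counts (x axis) of the p65-deficient clone to WT for each of the 10 genes in 6 matched pairs, coloured by inhibitor with 0 h TNFα as open and 1 h as filled circles, with exact 95% intervals for counting error and the edgeR log2 fold change as a thick bar (adjusted p under 0.05) or a dotted line. All 6 points of *HSPA1B* lie between 0.46 and 0.73 and all 6 of *HSPH1* between −0.97 and −0.51, and the CPT points of *DNAJB1* lie apart from its others.

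The wider chaperone network was followed in 5 further lists. With CPT, edgeR called 23.2% of all 13993 genes higher and 25.1% lower, and DESeq2 called 2418 higher and 2878 lower. Among 8 genes that regulate or restrain HSF1 or work with HSP70, 3 rose and 2 fell with CPT. *HSF1* itself had a log2 fold change of 0.13 (SE 0.0499, adjusted p = 0.0541 in edgeR). *HSF2*, which can form mixed trimers with HSF1, fell to 0.514-fold (−0.96, adjusted p = 7.83e-06 in edgeR), with 243 to 312 normalized counts against 515 to 566 without inhibitor. *DEDD2* (−0.80) fell as well. *HSF4* (0.51), *IER5* (0.47), which promotes HSF1 activity, and *HSBP1* (0.35), which binds HSF trimers, rose. *IER5* had 1338 to 2396 normalized counts with CPT and 1150 to 1380 without, so its groups overlapped. The CPT effect in p65-deficient cells minus that in WT was 0.63 on the log2 scale for *IER5* and 0.43 for *HSF4*. It was −0.02 for *HSBP1*, −0.35 for *HSF2* and 0.20 for *DEDD2*. *EEF1A1* had 0.05 and *STUB1*, a ubiquitin ligase that works with HSP70, had 0.20, both not called. With DESeq2, 1 regulator was higher and 2 were lower.

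Of 32 further cytosolic chaperones, co-chaperones and related genes, 30 were tested with CPT, of which 17 rose and 6 fell. Among all genes tested, 23.2% rose and 25.1% fell by the same test. The stress-specific *HSPA6* had 0 or 1 read per library and *CRYAB* was at most at 1.75 normalized counts, and neither was tested. Among the called genes with a mean of at least 20 reads, those that moved most were *BAG1* (−0.57, adjusted p = 7.09e-05 in edgeR) and *BAG5* (−0.48, adjusted p = 2.28e-05 in edgeR), which are HSP70 exchange factors, the HSP70 gene *HSPA2* (0.41, adjusted p = 0.0353 in edgeR) and the HSP40 gene *DNAJB4* (−0.37, adjusted p = 0.00416 in edgeR). All 8 subunit genes of the cytosolic chaperonin TRiC, which folds actin and tubulin, rose, by 0.15 to 0.21 on the log2 scale, with *CCT7* (0.21) and *TCP1* (0.20) first. With DESeq2 the same counts were 14 and 5 for the cytosolic list and 8 and 0 for TRiC.

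Of 8 further mitochondrial chaperones and proteases, 2 rose (*TRAP1* by 0.19 and *LONP1* by 0.12 on the log2 scale), 1 fell (*GRPEL1*, −0.13) and 5 were not called. These counts, and those of the endoplasmic reticulum below, stand beside 23.2% higher and 25.1% lower among all genes. *HSPA9*, the mitochondrial HSP70, had 0.07 (adjusted p = 0.212 in edgeR). Of 14 genes of the endoplasmic reticulum, 8 rose and 4 fell. The 4 that fell were *DNAJB9* (−0.94), *XBP1* (−0.86), *DDIT3* (−0.59) and *HERPUD1* (−0.49), of which *XBP1* and *DDIT3* encode transcription factors of the unfolded protein response. *DNAJB9* had 71.0 to 105 normalized counts with CPT and 157 to 182 without. The CPT effect in p65-deficient cells minus that in WT was −0.56 on the log2 scale for *DDIT3* and −0.28 for *HERPUD1*. It was −0.24 for *DNAJB9* and 0.25 for *XBP1*. The 8 that rose did so by 0.12 to 0.27 and included the chaperone genes *HSPA5*, *HSP90B1* and *CALR*. DESeq2 called 1 mitochondrial gene higher and 0 lower, and 7 and 4 of the endoplasmic reticulum list.

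**Figure D4:**
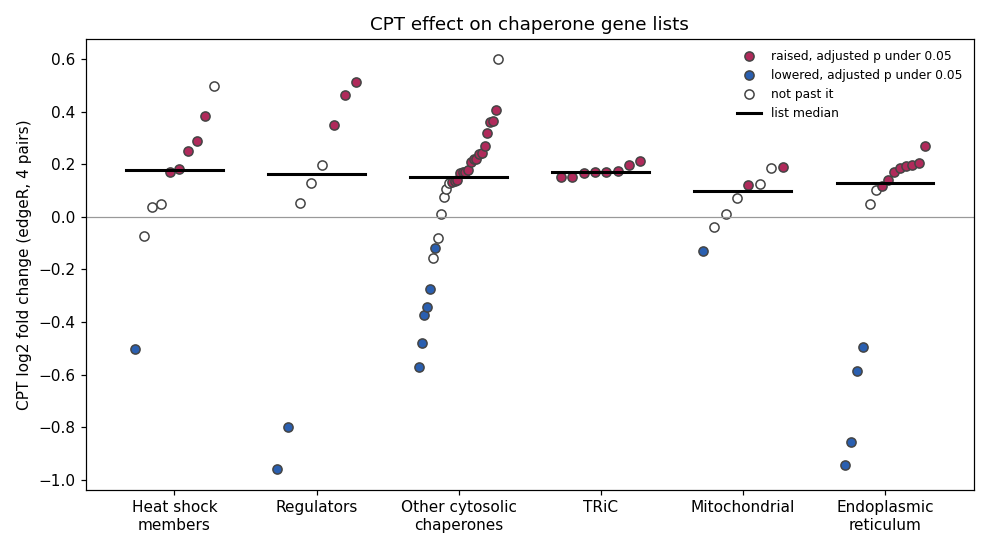
EdgeR log2 fold change of CPT against no inhibitor over 4 pairs (y axis) for each gene tested in the 10 members and in 5 lists of related genes (x axis), with genes called higher in red, called lower in blue, not called as open circles and the list median as a bar. The members' median is 0.18, all 8 TRiC genes lie between 0.15 and 0.21, and the blue points reach −0.96 among the regulators and −0.94 in the endoplasmic reticulum list.

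With ICRF193, 1 gene of these 5 lists was called, *DNAJA4* (0.20, adjusted p = 0.0144 in edgeR), an HSP40 gene as *DNAJB1* is, and DESeq2 called none. The other HSP40 genes of the cytosolic list lay between −0.14 (*DNAJB5*) and 0.10 (*DNAJB4*) and were not called. Of all genes, edgeR called 0.587% higher and 1.58% lower with ICRF193. With TNFα edgeR and DESeq2 called none in either cell line. At an unadjusted p under 0.05 edgeR had 1 cytosolic and 1 endoplasmic reticulum gene in WT, and 595 of all 13707 genes. In p65-deficient cells edgeR had 3 regulators, 3 higher and 5 lower cytosolic genes, 1 mitochondrial gene and 2 endoplasmic reticulum genes, and 1683 of all 12858 genes.

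In the clone, edgeR called 15.2% of all 13730 genes higher and 16.9% lower. Of the 30 genes tested of the cytosolic list, 5 were higher and 7 lower, led by *HSPA2* (0.70, adjusted p = 0.00180 in edgeR), *DNAJB4* (−0.57) and *BAG1* (−0.28). No TRiC gene was called by edgeR or DESeq2, and none had an unadjusted p under 0.05 in edgeR, where 5848 of all genes did. Of the mitochondrial list, 4 of 8 were lower and none higher, namely *GRPEL1* (−0.24), *TRAP1* (−0.23), *HSPA9* (−0.17) and *LONP1* (−0.15). *DEDD2* (0.50) was the only regulator called, and *DDIT3* (0.45) was higher while *HERPUD1* (−0.22) and *XBP1* (−0.16) were lower. DESeq2 called 4 higher and 7 lower of the cytosolic list, 0 and 4 of the mitochondrial, 1 and 0 of the regulators and 1 and 1 of the endoplasmic reticulum list.

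*HSPA1A* and *HSPH1* were also compared with 10220 genes of at least 100 reads on average by the Pearson correlation of log2 normalized counts over the 12 libraries, which share the cell lines, inhibitors and depths and are not independent repeats. *HSPA1A*, the member with the largest SD (0.42) at only 16 to 71 reads, was most like *PLOD2* (0.856), *DIRC2* (0.856), *CMBL* (0.848), *DDB2* (0.846) and *GRIPAP1* (0.845). *HSPH1*, the most variable member among those with at least 100 reads on average and added after its values were seen, was most like *VPS35* (0.987), *NCAPG* (0.984), *KITLG* (0.983), *NETO2* (0.983) and *NUP155* (0.980).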

How the data were processed

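RNA-seq counts of 12 libraries (1 per condition) were analysed. The authors deposited raw counts, not normalized, for 26364 gene symbols. The files' headers give featureCounts 1.5.0 over hg19 exons, and the paper's methods give trimming with Trimmomatic. The submitters' processing notes also list STAR. The counting command sets no option for strand, for reads at several places or for reads on several genes, so reads from near-identical copies, overlapping genes and antisense genes are uncertain. The library kit (total RNA, stranded) marks strand.

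Counts between 8101212 and 22051046 per library were tested with edgeR 4.0.16 (R 4.3.3, limma 3.58.1): TMM normalization, edgeR's expression filter, the quasi-likelihood test, the matched pair as a block and Benjamini-Hochberg adjustment over all genes tested; the threshold was an adjusted p of 0.05. CPT and ICRF193 were compared with no inhibitor in 4 pairs each, TNFα in 3 pairs per cell line and the cell lines in 6 pairs. Interaction terms tested differences between effects. Nothing says that libraries came from separate cultures beyond their conditions, and pairs stand in for replicates. Standard errors are derived from the test statistic. The scripts were tested on simulated counts. Normalized counts are reads divided by DESeq2 1.42.0 size factors over the 12 libraries. Pair ratios carry 95% Clopper-Pearson intervals (exact), limited to counting error, with each read taken as a molecule of its own. Levels per kilobase use the exonic length on the main chromosome. Windows of 36 bases were compared over GENCODE transcripts. Promoters are RefSeq's, in GRCh38.p14, while gene positions are those of the authors' hg19 annotation. Tables were made in Python 3.11.15 with pandas 2.3.3 and numpy 2.4.6, intervals with scipy 1.17.1 and plots with matplotlib 3.10.9.

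The 10 members and the lists were chosen with earlier results of these data known. Named from the lists are all regulators and, per comparison, up to 4 called genes with the largest change and a mean of at least 20 reads, besides genes named for their low counts, for their role or as range ends after their values were seen. A gene that this rule names in the comparison of the clone is not reported here by name. Alternatives were other normalizations, no expression filter, no block, DESeq2, all 12 libraries in the fit, *HSPA1A* and *HSPA1B* summed, each pair left out and, added after seeing the data, pairs of 1 cell line or without the shallow libraries and exonic length of no other gene.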

Additional observations from a re-analysis of the deposited data

Results flagged for a closer look

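The CPT effect on *DNAJB1* differed between the cell lines in a test of the difference itself. The difference, p65-deficient minus WT, was 0.41 on the log2 scale (SE 0.0722, adjusted p = 0.00425 by edgeR's interaction term), with 3308 and 3295 normalized counts falling to 2007 and 2020 in the WT pairs, and 3736 and 3400 to 3078 and 2817 in the p65-deficient pairs. DESeq2 gave 0.44 (adjusted p = 0.00654). Leaving out each pair in turn gave 0.41 to 0.46, and the call was lost without the p65-deficient pair at 0 h (adjusted p = 0.0541 in edgeR). The 1 h pair of the p65-deficient cells compares 2 libraries of different depth from the WT ones (8101212 and 8154407 reads), and the part of depth in the difference was not tested beyond leaving out that pair.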

How the results depend on the processing

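Of 634 log2 fold changes of members under the alternatives, 549 kept their direction and their side of the threshold, 29 lost a call, 17 gained one and 39 changed sign, none of these 39 with a call in either setting. Among values given above one by one, those that changed sign were *HSPH1* with CPT (−0.10 with the p65-deficient pairs alone, −0.035 to 0.12 with 1 pair left out), *BAG3* with CPT (−0.025 with the WT pairs alone, −0.0077 to 0.073 with 1 pair left out), *HSPE1* in the clone (−0.025 to 0.049 with 1 pair left out) and *HSPB1* in the clone (0.094 in the pairs without shallow libraries). Members given above only within a range also changed sign with 1 pair left out. These were *HSPB1*, *HSPD1* and *HSPE1* with ICRF193, and *HSPA1A*, *HSPA1B*, *HSPH1*, *HSP90AA1* and *HSPD1* with TNFα in WT. With CPT, the WT pairs alone gave 2 lower members in place of 1, and the 5 higher members became 4 with each pair left out, with no pair block and with the p65-deficient pairs alone, and 6 with all 12 libraries in the fit, no expression filter or the WT pairs alone. The 1 member higher with ICRF193 became 0 with no pair block, with DESeq2, with all 12 libraries in the fit and, among fits with 1 pair left out, 0 to 1. Members higher in the clone, 4, became 1 with no pair block, 2 with DESeq2, 1 in the pairs without shallow libraries and 2 to 4 with 1 pair left out. Members lower in the clone, 1, became 2 with no expression filter and 1 to 3 with 1 pair left out. With no expression filter, 1 member was lower with TNFα in p65-deficient cells, 1 in the TNFα difference and 1 in the CPT difference between the cell lines, in place of 0. Leaving out 1 pair gave 0 to 2 lower with TNFα in p65-deficient cells, and 0 to 1 higher and 0 to 1 lower in the CPT difference, for which all 12 libraries in the fit gave 2 lower. Without the pair block, *HSPA1B* lost its CPT call (adjusted p = 0.556 in edgeR).

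The calls over all genes moved more. With no pair block, edgeR called 3 higher and 0 lower with ICRF193 (80 and 216 with the block), 0 and 0 with TNFα in WT (84 and 4), 0 and 0 in p65-deficient cells (36 and 28) and 1042 and 1001 in the clone (2092 and 2316). DESeq2 called 18 and 65, 25 and 0, 0 and 2, and 1457 and 1846 in the same order. With total counts in place of TMM, the split of higher and lower calls became 100 and 163 with ICRF193, 28 and 11 with TNFα in p65-deficient cells and 2436 and 1802 in the clone. Leaving out the CPT pair gave 201 and 171 with TNFα in WT, and leaving out the ICRF193 pair gave 297 and 284 in p65-deficient cells. The causes were not tested. The 16 to 71 reads of *HSPA1A* limit every statement on this gene.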
